A study of Mus musculus with 6 samples.

Results

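Wnt ligands, their Frizzled receptors and Lrp co-receptors, the R-spondins and the secreted Wnt antagonists were followed as a group in primary mouse fibroblasts. The group held the protein-coding genes whose symbol begins with Wnt, Fzd, Sfrp or Dkk followed by a digit, together with Frzb, Wif1, Lrp5, Lrp6, Axin2 and Rspo1 to Rspo4. This gave 46 genes of the 51912 in the table, of which 23 were detected, meaning a level of at least 1 TPM (a gene's share of all transcripts in a library, corrected for transcript length) in at least 3 libraries. One group of cells had been kept for 48 h with CXCL3, a secreted chemokine of the CXC family, and the other consisted of cells labelled control, at the same 48 h. Each group held 3 libraries of primary fibroblasts from mice aged 6 weeks, and both groups share all labels other than the treatment. The labels give neither the mouse strain, the organ the cells came from, the dose of CXCL3, nor whether libraries came from separate cultures or animals, so the p-values measure the spread between these libraries, which may be technical.

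Wnt proteins are secreted, lipid-modified ligands that bind Frizzled receptors on nearby cells. With the co-receptors Lrp5 or Lrp6, a bound Frizzled stops the destruction complex from degrading beta-catenin, which then acts with TCF/LEF factors on target genes such as Axin2, itself a negative regulator of the pathway. R-spondins keep Frizzled receptors at the cell surface by drawing off the ligases that remove them. Secreted frizzled-related proteins, Frzb and Wif1 bind Wnt ligands, and Dkk1 and its closest relatives block Lrp5 and Lrp6. Other Wnt signals, Wnt5a and Wnt11 among them, are known for acting without beta-catenin, on cell shape and polarity. In connective tissue the pathway is known for its part in fibroblast activation and fibrosis.

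On the first principal component, which held 52.9% of the variance, the 6 libraries did not divide by treatment. There the CXCL3 libraries lay between -18.7 and -9.39, with control 1 beside them at -19.2 and controls 2 and 3 at 36.6 and 26.6. Longer transcripts stood relatively higher in the same 4 libraries and lower in the other 2: Spearman's rho between transcript length and the difference from the 6-library mean was 0.20 to 0.40 with CXCL3 and 0.45, -0.50 and -0.48 in controls 1, 2 and 3, as a description across genes, which do not vary independently. Fibroblast markers were present (7 of 8 listed markers detected, with Lum below the threshold), at a summed 3021 to 3131 TPM with CXCL3 and 2786 to 3726 TPM in controls. All 9 macrophage markers were detected too, at a summed 14635 to 14737 TPM with CXCL3 and 14940 to 17940 TPM in controls, sums of which Lyz2 alone made up 89.6% to 89.9% with CXCL3 and 88.8% to 90.1% in controls. Of the 9, 3 had a positive and 6 a negative log2 fold change, and 6 overlapped between the groups, Adgre1 and Csf1r among them, while Lyz2, C1qa and C1qb lay lower in every CXCL3 library (9.31% of all genes tested). C1qa passed the test as lower with CXCL3 (167 TPM with CXCL3 and 289 TPM in controls, limma, adjusted p = 0.0493), a call that was lost in 11 of 19 alternative settings, among them without CXCL3 library 1, 2 or 3 (adjusted p = 0.295, 0.308 and 0.288) and without control 2 or 3 (0.0983 and 0.239). Their part in the levels below was not tested, and in such whole-culture samples fewer cells of a type and less RNA per cell cannot be told apart. Of 6 epithelial markers 0 were detected, of 6 endothelial markers 2, of 5 smooth muscle and pericyte markers 2 (Des and Mcam), and of 5 mesothelial markers 1 (Wt1).

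The cultures carried a compact set of Wnt pathway transcripts led by a few genes of each family. Among the 19 Wnt ligands 7 were detected, and of their summed TPM Wnt11 and Wnt5a together made up 70.5%, 69.7% and 71.3% with CXCL3, against 69.8%, 69.6% and 66.5% in controls (libraries 1, 2 and 3 of each group, the order used throughout). Among the 10 Frizzled receptors 8 were detected, and of their sum Fzd1, Fzd2 and Fzd7 held 85.8%, 87.3% and 85.8% with CXCL3, against 86.3%, 85.9% and 85.5% in controls. Among the 10 antagonists 3 were detected, and of their sum Dkk3 and Sfrp1 held 93.9%, 95.1% and 95.7% with CXCL3, against 93.2%, 93.1% and 90.8% in controls. Both co-receptors, 2 of 4 R-spondins and Axin2 were detected as well.

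**Figure D1:**
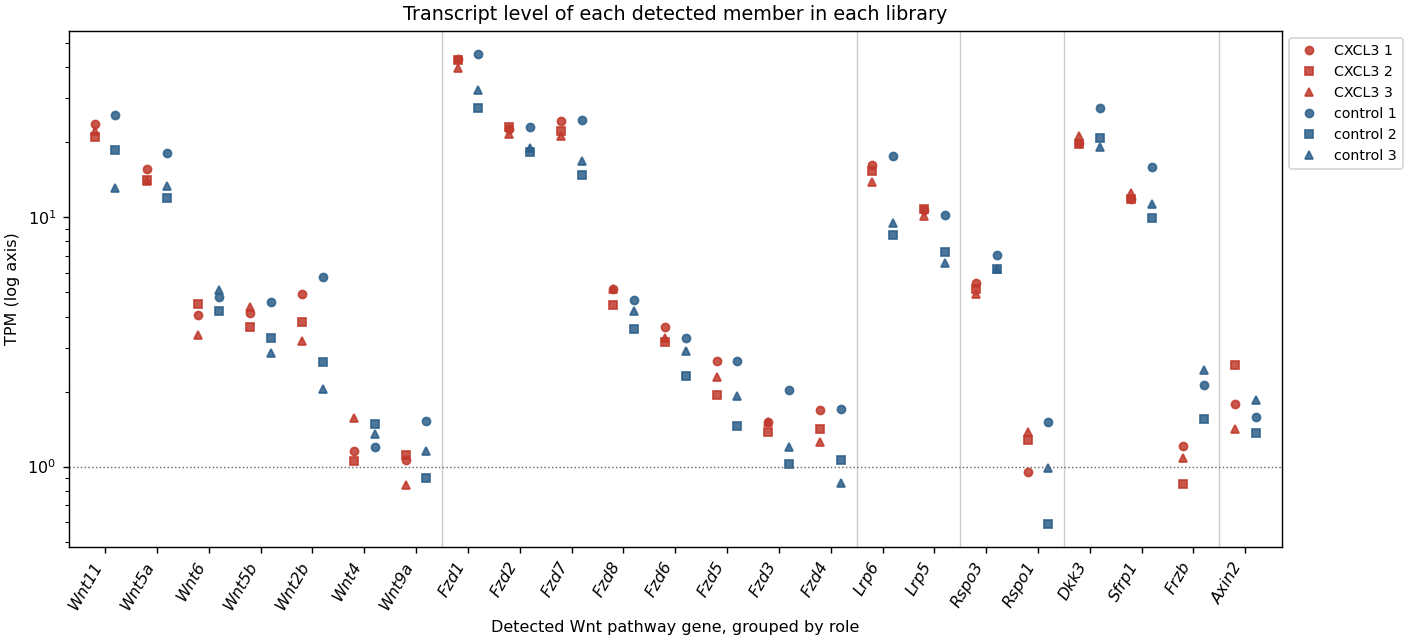
TPM on a log axis of the 23 detected genes, grouped by role from left to right as ligands, Frizzled receptors, co-receptors, R-spondins, antagonists and Axin2; each point is 1 library, red for CXCL3 and blue for control, and the dotted line marks 1 TPM. Fzd1 stands highest at 27.4 to 45.0 TPM, and control 1 (blue circle) is the highest of the 6 libraries in 16 of the 23 genes.

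No detected member passed the test between the groups (0 of 23; limma on log2(TPM + 1), adjusted p under 0.05 over the 13139 genes tested, where 0.16% of all genes passed). After correction of each library for its length and GC trend it was also 0 of 23, where 0.327% of all genes passed. At an unadjusted p under 0.05 there was 1 member, Frzb, of 23, lower with CXCL3, where 11.6% of all genes tested lay under that p and 5.65% did so as lower. The adjusted p of the 23 ran from 0.321 to 0.976. Their log2 fold changes, CXCL3 minus control, ran from -0.56 for Frzb to 0.39 for Lrp6, with 16 positive and 7 negative. The median was 0.15, beside 0.07 over all genes tested, of which 62.3% were positive. The 3 CXCL3 libraries lay wholly below the 3 controls for 2 members, Frzb and Rspo3 (9.31% of all genes tested), and wholly above them for 0 members (7.92%). The other 21 overlapped between the groups. Each of the 23 reached 1 TPM in libraries of both groups, 19 of them in all 6.

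Promoter sequences are given for the leading ligand, for the leading Frizzled receptor and its relative Fzd7, for the feedback target Axin2, and for Frzb, the member with the smallest p. They are from RefSeq on the mouse build GRCm38.p6, whose table held 30 of the 46 members and 13 of the 23 detected. Each runs 5′ to 3′ over the 250 bases before the annotated start. Capitals mark the letters CTTTGA or their reverse TCAAAG, a form of the core that TCF/LEF factors bind. They also mark the letters TATAAA, the TATA box (reverse TTTATA). Both were searched on both strands, and other forms of the core were not searched. The Wnt11 window is chr7:98834862-98835111 on the plus strand, that of Fzd1 chr5:4758217-4758466 on the minus strand, that of Fzd7 chr1:59481897-59482146 on the plus strand and that of Axin2 chr11:108920099-108920348 on the plus strand. For Frzb, 30 bases around the core at chr2:80447474-80447503 on the minus strand are given, because its window reaches into the gene as GENCODE draws it.
Wnt11: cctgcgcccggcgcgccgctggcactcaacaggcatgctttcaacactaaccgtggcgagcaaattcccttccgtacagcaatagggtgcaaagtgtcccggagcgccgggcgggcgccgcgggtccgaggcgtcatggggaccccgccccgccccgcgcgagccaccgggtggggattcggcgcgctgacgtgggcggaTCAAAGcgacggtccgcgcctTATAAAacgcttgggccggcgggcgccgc
Fzd1: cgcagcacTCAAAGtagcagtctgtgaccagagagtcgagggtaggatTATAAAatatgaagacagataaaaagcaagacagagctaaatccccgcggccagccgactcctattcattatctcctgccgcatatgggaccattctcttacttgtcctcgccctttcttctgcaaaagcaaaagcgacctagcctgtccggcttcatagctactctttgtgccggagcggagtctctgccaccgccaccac
Fzd7: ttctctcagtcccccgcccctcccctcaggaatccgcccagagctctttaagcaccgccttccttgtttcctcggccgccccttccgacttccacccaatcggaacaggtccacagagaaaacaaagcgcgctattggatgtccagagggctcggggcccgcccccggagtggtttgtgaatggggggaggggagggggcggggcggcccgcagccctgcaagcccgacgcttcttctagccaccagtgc
Axin2: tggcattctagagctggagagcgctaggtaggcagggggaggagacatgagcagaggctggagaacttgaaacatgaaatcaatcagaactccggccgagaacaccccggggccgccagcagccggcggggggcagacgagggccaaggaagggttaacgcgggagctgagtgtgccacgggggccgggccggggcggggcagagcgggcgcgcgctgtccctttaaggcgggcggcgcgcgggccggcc
Frzb: tcccctgaaaacTCAAAGccttctcggaag
Wnt11 held 1 TCF/LEF core, whose first base lay 50 bases before the start, and 1 TATA box that began 29 bases before it. Fzd1 held 1 core and 1 TATA box, beginning 242 and 202 bases before its start, and Frzb 1 core at 95 bases. Fzd7 and Axin2 held 0 matches to CTTTGA or TCAAAG and 0 TATA boxes in these windows. That does not show that they lack other forms of the core. Of all 16 such windows of the 13 detected members, 4 held the core and 2 the TATA box. A further Wnt11 start, not printed, held 0 of either. Windows of the same length before 32851 RefSeq starts held the core in 13.8% and the TATA box in 12.4%. A match of letters is a description and not a binding site.

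Among the ligands, Wnt11 and Wnt5a led in every library. Wnt11, a ligand known for convergent cell movements in embryos, was at 23.8, 21.0 and 22.2 TPM with CXCL3, against 25.6, 18.6 and 13.1 TPM in controls (log2 fold change 0.26 ± 0.21 SE, 95% interval -0.24 to 0.76, limma, adjusted p = 0.562). Control 1 was the highest of the 6 and control 3 the lowest, so that the control libraries enclosed all CXCL3 libraries. Wnt5a, the main ligand of the Ror receptors, was at 15.6, 14.1 and 14.0 TPM with CXCL3, against 18.2, 11.9 and 13.4 TPM in controls (log2 fold change 0.03 ± 0.16 SE, 95% interval -0.35 to 0.40, limma, adjusted p = 0.94). The means differed little (14.6 TPM with CXCL3 and 14.5 TPM in controls), with control 1 above and controls 2 and 3 below all CXCL3 libraries. Its sign turned in 7 of 19 alternative settings, the scaling ones included.

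Behind them came 3 ligands at 2 to 6 TPM. Wnt6, a ligand of epithelial and mesenchymal development, was at 4.07, 4.51 and 3.36 TPM with CXCL3, against 4.81, 4.2 and 5.1 TPM in controls (log2 fold change -0.20 ± 0.15 SE, 95% interval -0.55 to 0.15, limma, adjusted p = 0.539). CXCL3 libraries 1 and 3 lay below all controls and CXCL3 library 2 inside their range. The close relative of Wnt5a, Wnt5b, was at 4.14, 3.64 and 4.37 TPM with CXCL3, against 4.57, 3.27 and 2.85 TPM in controls (log2 fold change 0.16 ± 0.18 SE, 95% interval -0.25 to 0.57, limma, adjusted p = 0.654), with control 1 the highest and controls 2 and 3 the lowest of the 6. It overlaps Fbxl14 on the opposite strand (mean 15.1 TPM), and with no statement on strand in the counting, the split of reads between them is uncertain. Wnt2b, a ligand of the beta-catenin branch, was at 4.94, 3.81 and 3.2 TPM with CXCL3, against 5.74, 2.63 and 2.04 TPM in controls (log2 fold change 0.23 ± 0.30 SE, 95% interval -0.47 to 0.93, limma, adjusted p = 0.708). Its controls spread from 2.04 to 5.74 TPM and enclosed the CXCL3 libraries, the widest interval among the 23 members.

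The remaining detected ligands lay near 1 TPM. Wnt4, known for its part in kidney and gonad development, was at 1.16, 1.05 and 1.56 TPM with CXCL3, against 1.2, 1.48 and 1.35 TPM in controls (log2 fold change -0.06 ± 0.16 SE, limma, adjusted p = 0.858), with the highest and the lowest value both among the CXCL3 libraries. Wnt9a, known for joint formation, was at 1.06, 1.11 and 0.84 TPM with CXCL3, against 1.53, 0.90 and 1.15 TPM in controls (log2 fold change -0.12 ± 0.17 SE, limma, adjusted p = 0.718), with control 1 the highest. It reached 1 TPM in 4 of 6 libraries and so lay just inside the threshold. Just outside it lay Wnt2, at 0.75, 0.77 and 0.70 TPM with CXCL3, against 0.69, 0.52 and 0.44 TPM in controls. The other 11 undetected ligands (Wnt1, Wnt3, Wnt3a, Wnt7a, Wnt7b, Wnt8a, Wnt8b, Wnt9b, Wnt10a, Wnt10b and Wnt16) stayed at or below 0.41 TPM, and Wnt3a, Wnt8a and Wnt16 were listed at 0 in all 6 libraries.

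The summed TPM of all Wnt ligands was 55.8, 50.4 and 50.8 TPM with CXCL3, against 62.7, 43.8 and 39.8 TPM in controls, and that of all Frizzled receptors 105, 101 and 96.2 TPM with CXCL3, against 107, 70.3 and 79.8 TPM in controls. In both families control 1 had the highest sum of the 6 libraries and controls 2 and 3 the lowest, with the CXCL3 libraries between them. The make-up of the Frizzled sum varied less than its size: Fzd1 held 41.1%, 42.4% and 41.3% with CXCL3, against 41.9%, 39.0% and 40.6% in controls, and Fzd7 23.1%, 22.1% and 22.1% with CXCL3, against 22.8%, 21.1% and 21.2% in controls.

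**Figure D2:**
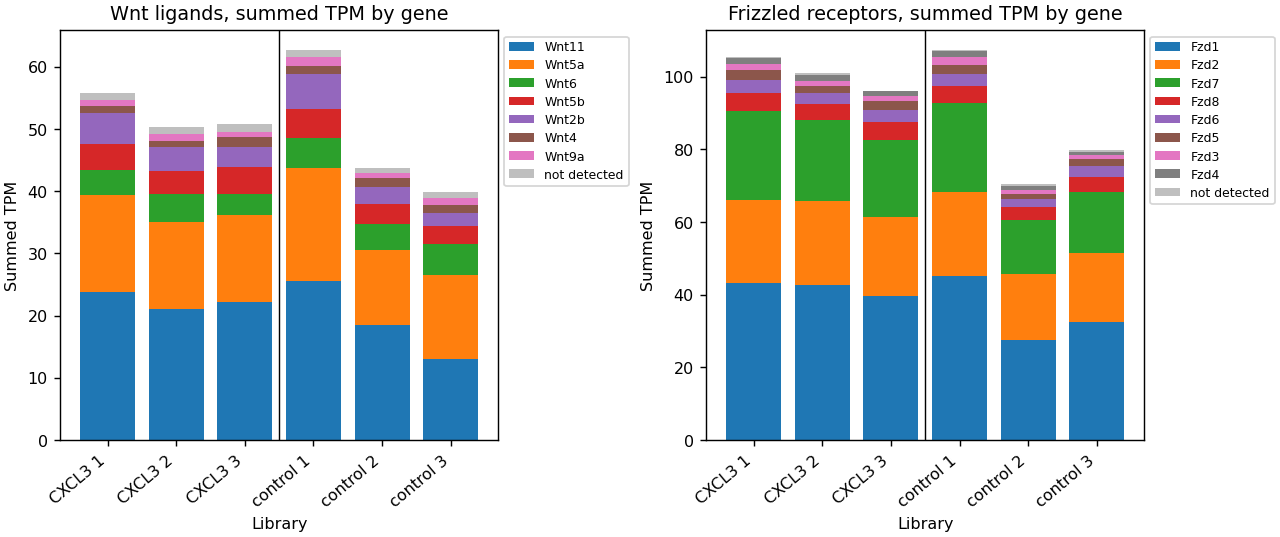
Summed TPM (vertical axis, from 0) of the Wnt ligands on the left and of the Frizzled receptors on the right, with 1 bar for each library and 1 colour for each detected gene; grey is the sum of the undetected members. The bars of control 1 reach 62.7 and 107 TPM, above the CXCL3 bars, and those of controls 2 and 3 lie below them. The Frizzled colours keep similar shares. Among the ligands Wnt11 holds 32.9% and Wnt5a 33.6% in control 3, while Wnt11 holds 40.9% to 43.7% in the other libraries.

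All 8 detected Frizzled receptors had a positive log2 fold change, with a median of 0.18, and 0 of 8 passed the test. The sign was not stable across scalings: that of Fzd3 turned with quantile normalization, and those of Fzd3, Fzd4 and Fzd5 turned once the dependence on transcript length and GC content was taken out of each library, which brought the median to 0.019. Fzd1 was the most abundant member of the whole group, at 43.3, 42.8 and 39.7 TPM with CXCL3, against 45.0, 27.4 and 32.4 TPM in controls (log2 fold change 0.28 ± 0.17 SE, 95% interval -0.11 to 0.68, limma, adjusted p = 0.483). Fzd7, whose protein is closely related to those of Fzd1 and Fzd2, was at 24.4, 22.2 and 21.2 TPM with CXCL3, against 24.5, 14.8 and 16.9 TPM in controls (log2 fold change 0.29 ± 0.18 SE, 95% interval -0.13 to 0.70, limma, adjusted p = 0.497). For both genes, controls 2 and 3 lay below all CXCL3 libraries and control 1 above them. Fzd2 was at 22.7, 23.0 and 21.6 TPM with CXCL3, against 23.1, 18.2 and 19.0 TPM in controls (log2 fold change 0.16 ± 0.11 SE, 95% interval -0.11 to 0.42, limma, adjusted p = 0.525), with the same order of groups.

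The 5 other detected Frizzled genes stood at 0.86 to 5.16 TPM. Fzd8 was at 5.16, 4.43 and 5.16 TPM with CXCL3, against 4.67, 3.56 and 4.22 TPM in controls (log2 fold change 0.20 ± 0.15 SE, limma, adjusted p = 0.523), and control 1 lay between the CXCL3 libraries. Fzd6, which is known for planar polarity of skin and hair, was at 3.62, 3.17 and 3.27 TPM with CXCL3, against 3.27, 2.3 and 2.9 TPM in controls (log2 fold change 0.19 ± 0.15 SE, limma, adjusted p = 0.552), again with control 1 inside the CXCL3 range and controls 2 and 3 below it. Fzd5 was at 2.65, 1.93 and 2.29 TPM with CXCL3, against 2.66, 1.45 and 1.92 TPM in controls (log2 fold change 0.14 ± 0.19 SE, limma, adjusted p = 0.714). CXCL3 library 1 and control 1 were nearly level as the highest of the 6. Fzd3, known for axon guidance, was at 1.51, 1.38 and 1.51 TPM with CXCL3, against 2.02, 1.02 and 1.2 TPM in controls (log2 fold change 0.05 ± 0.19 SE, limma, adjusted p = 0.893), and Fzd4, the receptor of Norrin in retinal vessels, at 1.69, 1.41 and 1.25 TPM with CXCL3, against 1.7, 1.06 and 0.86 TPM in controls (log2 fold change 0.17 ± 0.19 SE, limma, adjusted p = 0.665). Control 1 was the highest library for both. The undetected Fzd9 and Fzd10 stayed at or below 0.36 TPM.

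The co-receptors had the largest positive values of the group. Lrp6, which carries the Wnt signal to the destruction complex, was at 16.2, 15.3 and 13.9 TPM with CXCL3, against 17.6, 8.48 and 9.52 TPM in controls (log2 fold change 0.39 ± 0.24 SE, 95% interval -0.18 to 0.96, limma, adjusted p = 0.497). Its relative Lrp5, known for its role in bone mass, was at 10.7, 10.8 and 10.1 TPM with CXCL3, against 10.2, 7.29 and 6.56 TPM in controls (log2 fold change 0.38 ± 0.17 SE, 95% interval -0.0099 to 0.76, limma, adjusted p = 0.433). For Lrp5, control 1 lay just above the lowest CXCL3 library, and controls 2 and 3 were lower. For Lrp6, control 1 was the highest library and controls 2 and 3 the lowest. These genes have long transcripts (9368 and 8893 bases, beside a median of 3213 over all genes tested). With the trend of length and GC content removed their log2 fold changes were 0.13 and 0.09. Across the 23 detected members, which share the same libraries, the log2 fold change had a Spearman's rho with transcript length of 0.46. Over all tested genes of known length it was 0.45. After that removal it was 0.050 for the members, a value near 0 that follows largely from removing length itself.

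**Figure D3:**
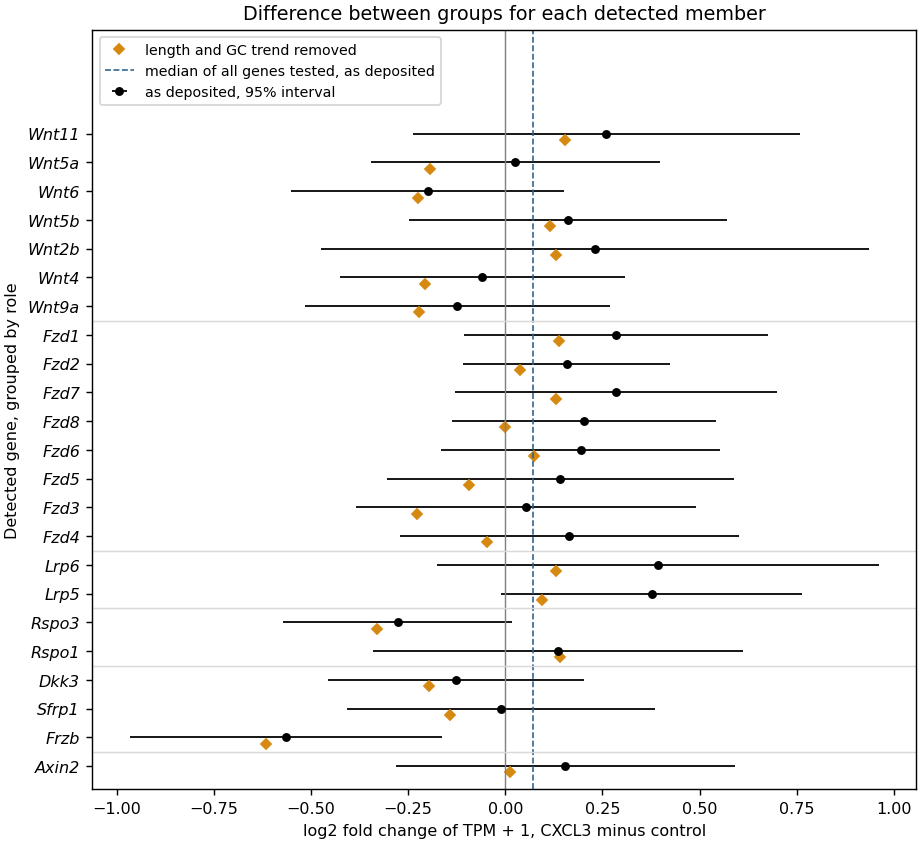
Log2 fold change of TPM + 1, CXCL3 minus control, for each detected member from the ligands at the top to Axin2 at the bottom; black points are values as deposited with their 95% interval, orange diamonds are values corrected for the length and GC trend, and the dashed line is the median of all genes tested (0.07). The interval of Frzb (-0.97 to -0.16) leaves out 0, and the diamonds of the 8 Frizzled receptors spread from -0.23 to 0.14.

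Leaving out control 1 changed the outcome for 6 members. Without it, Lrp6, Lrp5, Fzd1, Fzd7, Fzd2 and Wnt11 passed as higher with CXCL3 (limma, adjusted p = 0.00635, 0.00888, 0.0111, 0.0125, 0.0345 and 0.0437). In that setting 32.4% of all genes tested passed, and 25.2% did so as higher. Without controls 2 and 3, 0 members passed, and 13 of the 23 turned their sign, 12 of them from positive to negative. Relative to control 1 alone the CXCL3 mean was lower for 18 members (median log2 difference -0.19, beside -0.079 over all genes tested). Relative to the mean of controls 2 and 3 it was higher for 18 (median 0.28, beside 0.14). The spread within a group was larger among controls for 20 of the 23 members (80.3% of all genes tested), with a median SD on the log2 scale of 0.10 with CXCL3 and 0.28 in controls.

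**Figure D4:**
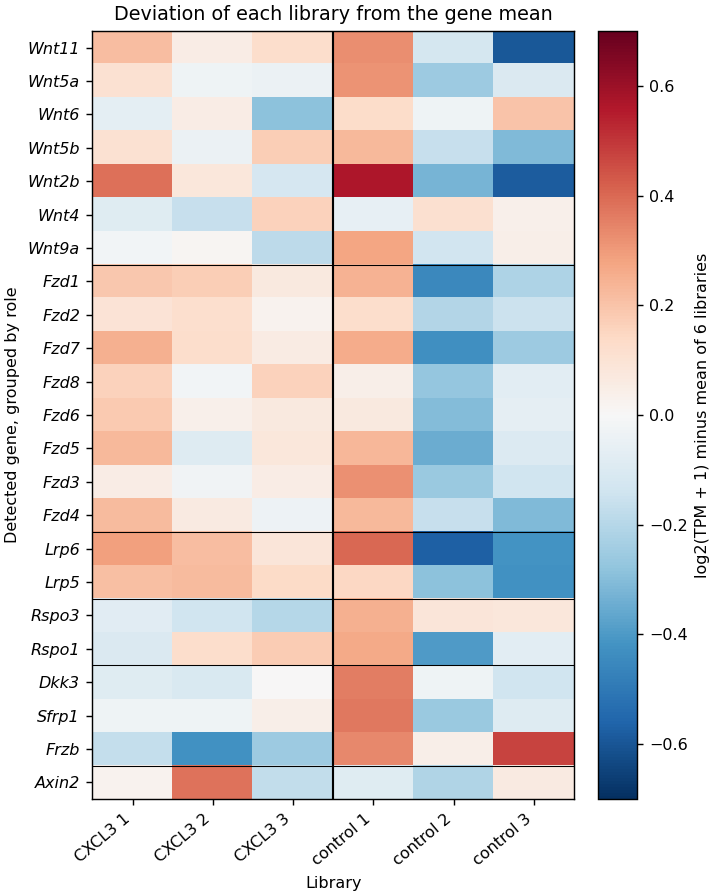
Deviation of each library from the mean of all 6 for each detected member, on the scale of log2(TPM + 1), with red above and blue below; the CXCL3 libraries are the left columns and the controls the right columns. The column of control 1 is red for most genes and that of control 2 blue, and control 2 was the lowest of the 6 libraries for 12 members. The rows of Frzb and Rspo3 are blue in all CXCL3 columns.

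Rspo3, the R-spondin with the higher level (gene at chr10:29452416-29535867, GRCm38), was one of the members whose groups did not overlap. It was at 5.44, 5.18 and 4.93 TPM with CXCL3, against 7.09, 6.21 and 6.2 TPM in controls. Every CXCL3 library lay below every control, the nearest pair being 5.44 and 6.20 TPM. The difference did not pass over all genes (log2 fold change -0.28 ± 0.13 SE, 95% interval -0.57 to 0.02, limma, adjusted p = 0.443), and its sign was the same in all 19 alternative settings, with adjusted p between 0.131 and 0.811. Rspo1 was at 0.95, 1.28 and 1.37 TPM with CXCL3, against 1.51, 0.59 and 0.99 TPM in controls (log2 fold change 0.14 ± 0.20 SE, limma, adjusted p = 0.746), reached 1 TPM in 3 of 6 libraries, the fewest that count as detected, and had its highest and its lowest library among the controls. Rspo2 stayed at or below 0.15 TPM and Rspo4 was listed at 0.

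Among the secreted antagonists Frzb had the largest difference. Frzb, also called Sfrp3, which binds Wnt ligands in cartilage and other mesenchyme (gene at chr2:80411970-80447625), was at 1.21, 0.85 and 1.08 TPM with CXCL3, against 2.13, 1.55 and 2.44 TPM in controls. The highest CXCL3 library (1.21 TPM) lay below the lowest control (1.55 TPM). On the log2 scale the difference was large beside its error but did not pass over all genes (log2 fold change -0.56 ± 0.17 SE, 95% interval -0.97 to -0.16, limma, adjusted p = 0.321). It kept its sign in all 18 alternative settings that gave it a value, from -0.89 with a pseudocount of 0.1 to -0.22 with one of 5, and its adjusted p lay between 0.0675 and 0.787. At these low levels the size of the value rests on the pseudocount.

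Dkk3, an unusual member of the Dickkopf family, was the most abundant antagonist, at 20.0, 19.6 and 21.3 TPM with CXCL3, against 27.5, 20.8 and 19.2 TPM in controls (log2 fold change -0.13 ± 0.14 SE, 95% interval -0.46 to 0.20, limma, adjusted p = 0.66). Sfrp1, a secreted decoy that resembles the ligand-binding part of Frizzled, was at 11.8, 11.8 and 12.5 TPM with CXCL3, against 15.9, 9.93 and 11.3 TPM in controls (log2 fold change -0.01 ± 0.17 SE, 95% interval -0.41 to 0.39, limma, adjusted p = 0.976). For both genes control 1 stood above the other 5 libraries, which lay close together at 19.2 to 21.3 TPM for Dkk3 and 9.93 to 12.5 TPM for Sfrp1. The sign of both turned without control 1. Just outside the threshold lay Sfrp2, at 0.54, 0.50 and 0.22 TPM with CXCL3, against 0.89, 0.33 and 0.38 TPM in controls. The other 6 undetected antagonists (Sfrp4, Sfrp5, Dkk1, Dkk2, Dkk4 and Wif1) stayed at or below 0.25 TPM, and Dkk1 and Dkk4 were listed at 0 in all libraries.

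Axin2, the feedback gene that is often read as a gauge of beta-catenin signalling, was low in both groups. It was at 1.78, 2.56 and 1.42 TPM with CXCL3, against 1.58, 1.36 and 1.85 TPM in controls (log2 fold change 0.15 ± 0.19 SE, 95% interval -0.28 to 0.59, limma, adjusted p = 0.684). The CXCL3 libraries held the highest value of the 6 and controls the lowest, with overlap. Its promoter window above held 0 matches to the TCF/LEF core in the form searched.

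**Figure D5:**
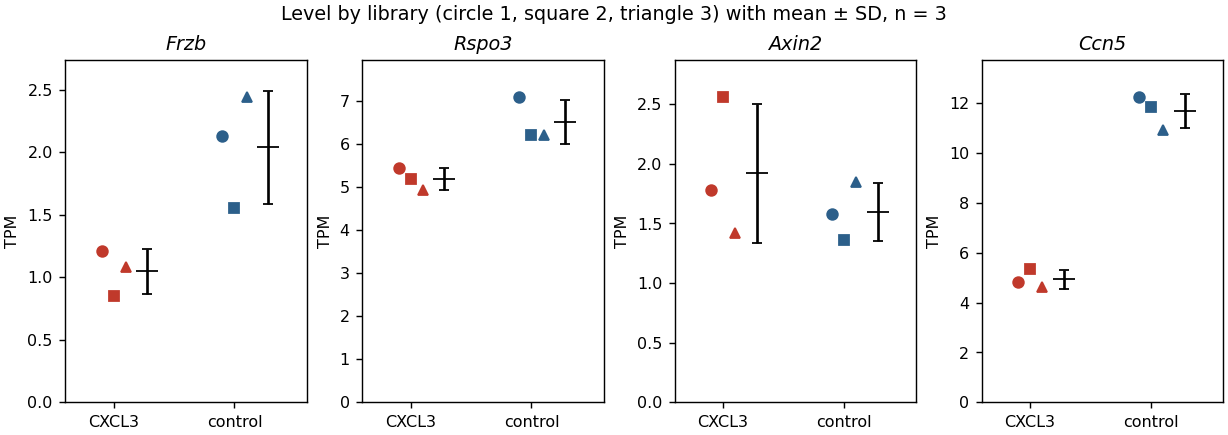
TPM (linear axis from 0) of Frzb, Rspo3, Axin2 and the Wnt-induced gene Ccn5 in each library, with CXCL3 in red at the left and control in blue at the right; black bars are mean ± SD of 3 libraries. The groups do not overlap for Frzb, Rspo3 and Ccn5, and overlap for Axin2.

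Other Wnt pathway genes were read from 6 lists drawn from textbook knowledge. On them 1 gene, Ccn5, passed over all genes, where 0.16% of all genes tested passed. The number of genes detected is given for each list. Counts of positive values below stand beside 62.3% positive over all genes tested, as deposited. In the list of 14 transcriptional targets 13 were detected, with 0 passing as higher and 1 as lower, and a median log2 fold change of 0.058. Ccn5, a matricellular gene also named Wnt1-inducible signalling pathway protein, was at 4.82, 5.35 and 4.62 TPM with CXCL3, against 12.2, 11.9 and 10.9 TPM in controls (log2 fold change -1.10 ± 0.12 SE, 95% interval -1.38 to -0.81, limma, adjusted p = 0.0318). Its CXCL3 libraries lay far below its controls, and its sign held in all 19 settings, though the call was lost in 8 of them, among them without control 2 (adjusted p = 0.103), without control 3 (0.129) and without CXCL3 library 1, 2 or 3 (0.239, 0.175 and 0.235). Its relative Ccn4 was at 61.0 ± 2.0 TPM with CXCL3 and 76.9 ± 20.8 TPM in controls (mean ± SD, n = 3 each; log2 fold change -0.30 ± 0.17 SE, limma, adjusted p = 0.478). Control 1 stood at 100.6 TPM for Ccn4, beside 62.2 and 67.7 TPM in controls 2 and 3. The log2 fold change was -0.09 without control 1 (adjusted p = 0.318) and -0.71 without controls 2 and 3 (adjusted p = 0.0287). Nkd2, which encodes an inhibitor of Dishevelled, was at 2.35 ± 0.249 TPM with CXCL3 and 2.93 ± 0.65 TPM in controls (adjusted p = 0.544 by limma). Id2, an inhibitor of helix-loop-helix factors, was at 91.6 ± 2.19 TPM with CXCL3 and 76.8 ± 3.97 TPM in controls (log2 fold change 0.25 ± 0.07 SE, limma, adjusted p = 0.287), and the cyclin gene Ccnd1 at 35.0 ± 1.69 TPM with CXCL3 and 25.4 ± 6.24 TPM in controls (log2 fold change 0.47 ± 0.16 SE, limma, adjusted p = 0.362). Both had groups that did not overlap, and neither passed. Groups did not overlap for 17.2% of all genes tested, and most list genes here and below were named for a small p, which favours such separation.

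Genes of ligand secretion and of extracellular control were 7 of 12 detected, with 0 passing, 3 positive and 4 negative, the log2 fold changes having a median of -0.0064. Wls, the carrier that brings Wnt proteins to the cell surface, was at 188, 187 and 182 TPM with CXCL3, against 212, 155 and 181 TPM in controls (log2 fold change 0.03 ± 0.11 SE, limma, adjusted p = 0.884). Porcn, the enzyme that attaches their lipid, was at 4.52, 4.77 and 4.22 TPM with CXCL3, against 5.63, 4.17 and 6.49 TPM in controls (log2 fold change -0.21 ± 0.17 SE, limma, adjusted p = 0.56). Groups overlapped for both, and the sign for Wls turned with median-of-ratios scaling. Cthrc1, a secreted protein that binds Wnt and Frizzled, was at 19.4 ± 1.69 TPM with CXCL3 and 27.3 ± 1.43 TPM in controls (log2 fold change -0.47 ± 0.10 SE, limma, adjusted p = 0.171), and the glypican gene Gpc4 at 29.7 ± 1.18 TPM with CXCL3 and 36.0 ± 2.07 TPM in controls (log2 fold change -0.27 ± 0.09 SE, limma, adjusted p = 0.341). Igfbp4, a binding protein of insulin-like growth factors also known to bind Frizzled and Lrp6, was at 181 ± 6.17 TPM with CXCL3 and 130.0 ± 17.3 TPM in controls (log2 fold change 0.48 ± 0.10 SE, limma, adjusted p = 0.158), and Gpc6 at 2.82 ± 0.661 TPM with CXCL3 and 2.08 ± 0.467 TPM in controls (adjusted p = 0.498 by limma). The groups did not overlap for Cthrc1, Gpc4 and Igfbp4, each named for its small p (17.2% of all genes tested did not overlap). Igfbp4 passed as higher with library weights (limma, adjusted p = 0.0389), without control 1 (0.0215) and without controls 2 and 3 (0.0348), and Cthrc1 as lower with library weights (0.0389) and without control 1 (0.0101).

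Further receptors and their turnover genes were 10 of 14 detected, with 0 passing, 9 positive and 1 negative, the log2 fold changes having a median of 0.28. The negative one was Ryk, a receptor of Wnt ligands with a kinase-like domain, at 81.7, 83.8 and 81.2 TPM with CXCL3, against 94.3, 86.9 and 92.7 TPM in controls (log2 fold change -0.15 ± 0.07 SE, limma, adjusted p = 0.443), where CXCL3 libraries lay below all controls (9.31% of all genes tested). Reck, a partner in Wnt7 signalling and an inhibitor of matrix proteases, was at 4.56, 4.1 and 4.05 TPM with CXCL3, against 4.02, 2.49 and 2.47 TPM in controls (log2 fold change 0.41 ± 0.18 SE, limma, adjusted p = 0.435), with every CXCL3 library above every control (7.92% of all genes tested), the nearest by a narrow margin. Adgra2, its adhesion receptor partner, was at 25.6, 27.4 and 24.4 TPM with CXCL3, against 28.7, 14.6 and 16.0 TPM in controls (log2 fold change 0.43 ± 0.23 SE, limma, adjusted p = 0.471), with control 1 the highest of the 6.

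The list of Dishevelled and the destruction complex had 19 of 20 genes detected, with 0 passing, 17 positive and 2 negative, the log2 fold changes having a median of 0.17. Ctnnb1, which encodes beta-catenin, was at 516, 523 and 492 TPM with CXCL3, against 487, 467 and 489 TPM in controls (log2 fold change 0.09 ± 0.06 SE, limma, adjusted p = 0.513), and although its groups did not overlap (CXCL3 above in 7.92% of all genes tested), the nearest values were 491.6 with CXCL3 and 488.8 TPM in controls. Fbxw11, of the ligase that marks beta-catenin for degradation, was at 58.4 ± 6.04 TPM with CXCL3 and 47.0 ± 10.6 TPM in controls (limma, adjusted p = 0.457) and the scaffold gene Apc at 8.54 ± 0.818 TPM with CXCL3 and 6.17 ± 2.59 TPM in controls (adjusted p = 0.464). The negative ones were the kinase genes Gsk3a, at 70.2 ± 1.92 TPM with CXCL3 and 70.6 ± 3.56 TPM in controls (adjusted p = 0.967), and Csnk1g3, at 21.1 ± 0.442 TPM with CXCL3 and 21.2 ± 1.79 TPM in controls (adjusted p = 0.967).

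In the nuclear TCF/LEF complex 12 of 13 genes were detected, with 0 passing, 12 positive and a median log2 fold change of 0.17. Tcf7l2, a TCF factor, was at 4.63, 5.29 and 4.79 TPM with CXCL3, against 4.37, 3.79 and 3.99 TPM in controls (log2 fold change 0.23 ± 0.13 SE, limma, adjusted p = 0.48), with every CXCL3 library above every control (7.92% of all genes tested). Lef1 was undetected, at 0.44, 0.59 and 1.06 TPM with CXCL3, against 0.40, 0.37 and 0.24 TPM in controls. The beta-catenin adaptor gene Bcl9 was at 11.3 ± 1.34 TPM with CXCL3 and 8.15 ± 2.23 TPM in controls (limma, adjusted p = 0.426) and the co-repressor gene Tle3 at 35.5 ± 1.7 TPM with CXCL3 and 27.2 ± 7.13 TPM in controls (adjusted p = 0.426). Of the planar cell polarity list 7 of 11 genes were detected, with 0 passing, 7 positive and a median log2 fold change of 0.27. Prickle3 was at 4.66 ± 0.358 TPM with CXCL3 and 3.7 ± 0.137 TPM in controls (limma, adjusted p = 0.457) and Vangl2 at 6.67 ± 0.529 TPM with CXCL3 and 5.51 ± 0.441 TPM in controls (adjusted p = 0.472). With the length and GC trend removed, 2 of 7 genes of secretion and extracellular control, 6 of 13 targets, 7 of 10 further receptors, 12 of 19 genes of the destruction complex, 8 of 12 of the nuclear complex and 7 of 7 of the polarity branch were positive. The median log2 fold change over all genes tested was -0.0036 with this trend removed. Of the 24 genes named from these lists, 11 that had not passed did so without control 1, where 32.4% of all genes tested passed. They were Apc, Igfbp4, Fbxw11, Id2, Reck, Gpc4, Adgra2, Tle3, Bcl9, Cthrc1 and Ccnd1. Most of the 24 were named for a small p on libraries that this fit shares, so the count cannot be compared with that share.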

How the data were processed

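The values are TPM as the authors deposited them, in a single table of 51912 genes by 6 libraries with 0 columns of other samples. Per the labels' protocols, the libraries were standard Illumina ones from DNase-treated total RNA. Per the submitters' processing notes the tools were fastp, HISAT and RSEM, in no stated order, with the build GRCm38.p5. Not given in the sources used here are tool versions, the annotation release, strandedness and filters. TPM keeps no depth, so no counting interval is given and precision was judged from the spread between libraries. It also moves with every other gene and with how evenly long and short transcripts were sampled.

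Symbols, gene types, positions and the longest transcript came from GENCODE M21 (GRCm38), which matched 51719 genes. Genes with at least 1 TPM in at least 3 libraries (13139) were tested by limma 3.58.1 (R 4.3.3) after a log2(TPM + 1) transform (lmFit, eBayes with trend, two-sided, Benjamini-Hochberg over all genes kept, threshold 0.05), a procedure first tested on simulated data. The fold change on this scale understates that of low genes. With 3 libraries a group, the smallest exact two-sided permutation p is 0.1, so none was run. The members and lists were chosen with earlier results of these data known. Every detected member is named, undetected ones with values from 0.5 TPM in any library. Of each list, the genes that passed are named, and otherwise the 1 or 2 of lowest p in each direction, with Ctnnb1, Wls, Porcn, Tcf7l2 and Lef1 in any case. Alternatives were other pseudocounts (0.1 and 5), a minimum of 5 TPM or no minimum, quantile normalization, median-of-ratios scaling, loess removal of the length and GC trend, protein-coding genes alone, eBayes without trend and robust, arrayWeights, a replicate block, and leaving out libraries.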

Additional observations from a re-analysis of the deposited data

How the results depend on the processing

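Of the 23 members 0 passed as deposited. Of those tested in each alternative 0 passed, other than with library weights and the leaving out of single libraries. With library weights Lrp5 and Lrp6 passed (2 members, where 1446 of 13139 genes tested passed). When single libraries were left out the count ranged from 0 to 6 (6 without control 1, where 32.4% of all genes tested passed). With the minimum of 5 TPM 10 of the 23 were tested. Of the 24 genes named from the pathway lists, most of them for a small p, 7 gained a call with library weights and 11 without control 1. Over all genes, 21 passed as deposited, 0 when low genes were kept, 5 after median-of-ratios scaling, 43 with the length and GC trend removed, 1 with eBayes without trend, 1446 with library weights, 84 without controls 2 and 3, and 0 to 4254 when single libraries were left out. With the replicate block 12 genes and 0 members passed. Same-numbered libraries had correlations of their deviations of 0.12, -0.011 and 0.077, so the numbers were not taken as a pairing. The block ended the call of Ccn5 (adjusted p = 0.0581). Without controls 2 and 3 the log2 fold changes that turned sign were -0.10 for Fzd1, -0.043 for Fzd2, -0.11 for Fzd7, -0.16 for Fzd5, -0.29 for Fzd3, -0.14 for Fzd4, -0.20 for Rspo1, -0.20 for Lrp6, -0.19 for Wnt11, -0.30 for Wnt5a, -0.14 for Wnt5b, -0.45 for Wnt2b, 0.030 for Wnt4, -0.094 for Apc, -0.022 for Fbxw11, -0.19 for Wls and -0.15 for Adgra2. That fit has 1 control, assumed to vary like the CXCL3 group. With the length and GC trend removed they were -0.093 for Fzd5, -0.23 for Fzd3, -0.048 for Fzd4, -0.19 for Wnt5a and -0.055 for Wls. Quantile normalization gave -0.011 for Fzd3 and -0.078 for Wnt5a. Median-of-ratios scaling gave -0.047 for Wnt5a and -0.044 for Wls. Library weights gave 0.091 for Sfrp1, 0.026 for Gsk3a and 0.016 for Csnk1g3. Leaving out single libraries gave -0.064 to 0.23 for Fzd3, -0.028 to 0.30 for Rspo1, -0.23 to 0.021 for Dkk3, -0.14 to 0.17 for Sfrp1, -0.094 to 0.19 for Wnt5a, -0.0041 to 0.57 for Wnt2b, -0.15 to 0.0068 for Wnt4, -0.078 to 0.15 for Wls, -0.045 to 0.026 for Gsk3a and -0.073 to 0.043 for Csnk1g3. The weights stopped short of convergence. The cause of these changes was not tested.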

Other observations

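Ratios of 2 genes within a library are free of the scaling of that library, but not of its trend with transcript length. The longest transcripts of Wnt11 and Wnt5a, for example, have 3451 and 7010 bases. Lrp6 over Lrp5 was 1.51, 1.42 and 1.38 with CXCL3, against 1.72, 1.16 and 1.45 in controls. Wnt11 over Wnt5a was 1.52, 1.49 and 1.59 with CXCL3, against 1.41, 1.56 and 0.98 in controls, with control 3 apart from the other 5 libraries. Fzd1 over Fzd7 was 1.78, 1.92 and 1.87 with CXCL3, against 1.84, 1.85 and 1.92 in controls, with the groups overlapping, and Wnt2b over Wnt6 was 1.21, 0.845 and 0.952 with CXCL3, against 1.19, 0.626 and 0.40 in controls. These pairs were chosen after their values were seen.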
